A study of Mus musculus with 93 samples.

Results

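The nuclear-encoded subunits of the respiratory chain were followed through the brains of 4 mouse strains, with and without the APP/PS1 transgenes. The members were the protein-coding genes whose symbol begins with Nduf, Uqc, Cox4, Cox5, Cox6, Cox7, Cox8, Sdh or Atp5 and that had at least 10 counts in at least 10% of the 93 mice. Of 100 such genes in the count tables, 99 passed this filter, among 23702 genes that passed it in all. Cox8c, a testis isoform, did not pass. By the complex their proteins belong to, the members were 36 subunits of complex I, 4 of complex II, 8 of complex III, 18 of complex IV and 16 of complex V, and the other 17 were assembly factors and related proteins that carry the same prefixes.

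RNA was taken from the left brain hemisphere of mice aged 8 months, after perfusion, and polyA-selected libraries were sequenced and counted per gene. The strains were the classical laboratory strain C57BL/6J (B6) and the wild-derived PWK/PhJ (PWK), WSB/EiJ (WSB) and CAST/EiJ (CAST). In each strain, mice that carried the transgenes APPswe and PSEN1dE9 were set beside wild type (WT) littermates, to ask how natural genetic variation changes a mouse model of Alzheimer's disease. The transgenes came from a single B6 line and had been crossed into the wild-derived strains for at least 6 generations, and, as background, both are known to be driven by the prion protein promoter, which is active in neurons and also outside them. There were 12 WT and 10 B6.APP/PS1 mice, 12 WT and 12 CAST.APP/PS1 mice, 12 WT and 12 WSB.APP/PS1 mice, and 11 WT and 12 PWK.APP/PS1 mice. Females and males numbered 6 each in a group, but only 5 WT females were from PWK and 4 APP/PS1 females from B6.

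The respiratory chain sits in the inner mitochondrial membrane. Complexes I and II take electrons from NADH and succinate, complexes III and IV pass them on to oxygen while complexes I, III and IV pump protons, and complex V uses the proton gradient to make ATP. Apart from complex II, each complex combines these nuclear-encoded subunits with a few made from mitochondrial DNA, and neurons depend heavily on the ATP it yields.

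The counts on genes summed to 53969802 to 106016200 in a mouse. Counts on App, which take in the first transgene, were raised by 0.97 to 1.16 on the log2 scale in the transgenic mice of every strain, without overlap with WT. All 10 neuron markers checked were detected, at a sum of 6939 to 8419 CPM (counts scaled by library size), while 5 muscle markers summed to at most 24.7 CPM. A pair of B6 mice stood apart from the others, B6.APP/PS1 female 2 and B6 WT male 5. Their mean level over the 82 subunits was 0.56 and 0.63 log2 CPM above the average of all mice, against -0.016 to 0.37 in the other B6 mice, and cytosolic ribosomal protein genes stood 0.52 to 0.61 above it in the same mice. The value of 0.37 was that of B6 WT female 5, which was not left out with the pair, and the next B6 mouse stood at 0.18. The mitochondrially encoded subunits were instead lowest in the pair among B6 mice, at -0.20 and -0.084, against 0.033 to 0.54 in the others. The counts of members against B6 are therefore given with and without this pair. Differences of single genes from B6 include the pair, and where leaving it out ended a call or moved a printed value by over 1.5 times, that value is given too. The counts for other gene lists include the pair. The library numbers of the B6 mice form a run of their own, apart from 3 runs of up to 24 that mix the wild-derived strains. Strain and run therefore cannot be told apart wherever B6 is compared with a wild-derived strain. Per the paper, the strains went through behavioural tests in turn (PWK, WSB, CAST, B6) before harvest, so strain and time cannot be told apart in any pair. PWK.APP/PS1 mice were housed singly earlier than the others because of aggression. Transgenes and housing therefore cannot be told apart in the PWK response. In these bulk samples, fewer cells of a type and less RNA per cell cannot be told apart either.

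Per kilobase of exon, the subunits of complex V had the highest median level. Averaged over the WT groups, complex V subunits had a median of 105 CPM per kilobase, complex III subunits 94.9, complex IV subunits 84.2, complex II subunits 61.1, complex I subunits 51.4 and assembly factors 10.4. Atp5b, the subunit that holds the catalytic sites of ATP synthase, led all members at 528 CPM per kilobase. It was followed by Cox8a with 354, Cox4i1 with 292 and Cox6a1 with 275, the widespread isoforms of 3 complex IV subunits. The lowest members were isoforms known from testis or muscle, Cox7b2 with 0.18 and Cox8b with 0.76 CPM per kilobase. The order of the complexes therefore hides a wide spread within complex IV, from 0.18 to 354.

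Promoter sequences from RefSeq (GRCm38.p6), 250 bases before to 50 after each start, were matched to 81 members with 86 promoters. They are shown because nuclear respiratory genes are known to share binding motifs for NRF1, ETS-family factors and YY1. The motif of the NRF1 type, searched as GCGC, any 2 bases and GCGC, was found on either strand in 25 of the 86 promoters (29.1%), against 10.2% of the promoters of all genes tested and 6.22% of all promoters in the table. The ETS-type motif CCGGAAG was found in 21 (24.4%), against 13.5% and 8.86%, and the YY1-type motif ATGGCGGC in 9 (10.5%), against 3.57% and 2.24%. The promoters of cytosolic ribosomal proteins held these motifs in 10.3%, 31.0% and 6.90%. By class, the NRF1-type motif was found for 9 of 32 complex I genes, 2 of 3 of complex II, 1 of 5 of complex III, 1 of 14 of complex IV, 6 of 13 of complex V and 5 of 14 assembly factors. The ETS-type motif was found for 4, 2, 2, 3, 5 and 5 genes in the same order. A match is a description of the letters and no evidence of binding. The following stretches give examples, with the motif in capitals and read on the gene's strand.
Cox6a1, the complex IV gene with NRF1-type matches, chr5:115349046-115349129, minus strand, 2 NRF1-type matches: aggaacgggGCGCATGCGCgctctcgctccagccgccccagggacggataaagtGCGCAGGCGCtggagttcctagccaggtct
Ndufs5, complex I, chr4:123718255-123718304, minus strand, 1 NRF1-type match: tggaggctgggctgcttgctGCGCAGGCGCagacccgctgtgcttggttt
Sdhd, complex II, chr9:50603869-50603909, minus strand, 1 ETS-type match on the other strand: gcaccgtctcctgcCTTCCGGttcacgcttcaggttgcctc

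WT mice of the 4 strains were compared first. In the test of any difference over the strains, 91 of 99 members passed (edgeR, adjusted p under 0.05), where 84.5% of all genes passed. The differences were mostly small. The range of their 4 fitted strain means was 0.31 on the log2 scale at the median, against 0.54 over all genes tested. B6 was the highest strain for 56 members and PWK for 30, while WSB was the lowest for 53 and CAST for 32. These ranks include the B6 WT mouse that stood apart, and ranks without it are not given here. Without the pair the members' median of PWK minus B6 was -0.0056, so the order of B6 and PWK depends on that mouse.

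Relative to B6, most members were lower in CAST and WSB. In CAST, 68 members were lower and 10 higher, where 31.1% of all genes were lower and 30.3% higher. The median of the members was -0.18 on the log2 scale, against 0.0027 over all genes. In WSB, 75 members were lower and 4 higher, where 24.3% of all genes were lower and 23.2% higher, and the median was -0.20. PWK lay closer to B6, with 37 members lower and 13 higher, where 30.4% of all genes were lower and 28.8% higher, and a median of -0.061. Without the pair of B6 mice, the counts were 57 lower and 13 higher in CAST (median -0.14), 59 lower and 6 higher in WSB (median -0.14), and 26 lower and 23 higher in PWK (median -0.0056). The shares of all genes above come from the fit with the pair, and those without it are not given here. The same shares stand beside the counts by complex below. The lean of PWK towards lower levels was thus almost absent without the pair, and the lean of CAST and WSB was smaller. Only the WT mouse of the pair enters the WT means. That mouse was set apart for its high level of the subunits themselves, so leaving it out had to lower the B6 mean. The fit without the pair therefore cannot decide which B6 level is the better reference.

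The wild-derived strains could be compared within library runs. CAST had 47 members lower and 10 higher than PWK, where 27.1% of all genes were lower and 27.8% higher, with a median of -0.11. WSB had 55 lower and 9 higher than PWK, where 27.0% of all genes were lower and 27.5% higher, with a median of -0.13. CAST and WSB differed in both directions, with 22 members higher and 23 lower in CAST, where 27.1% of all genes were higher and 27.2% lower, and a median of 0.029. Within the 3 runs of libraries, the median of CAST minus PWK was -0.035, -0.067 and -0.16, that of WSB minus PWK 0.0065, -0.16 and -0.21, and that of CAST minus WSB -0.040, 0.081 and 0.045. In the first run, which held 2 PWK WT mice, WSB and PWK were at about the same median.

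**Figure D1:**
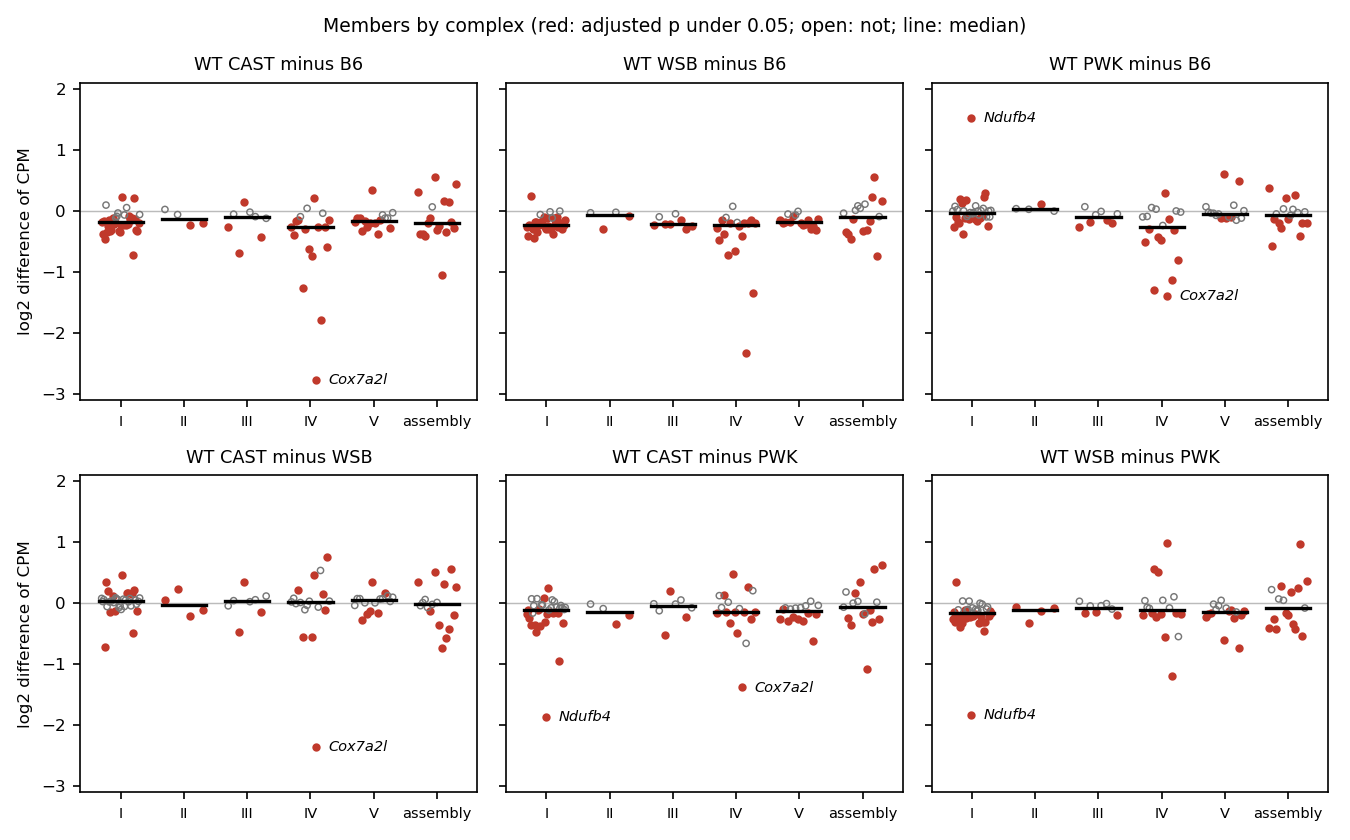
Log2 differences of CPM between WT strains for the 99 members, grouped on the x axis by complex and, last, assembly factors and related proteins; each point is a gene, red points passed an adjusted p of 0.05, open points did not, and black lines are medians. The medians of CAST and WSB against B6 lie below 0 in every class, Cox7a2l is the lowest point in CAST at -2.77, and Ndufb4 is the highest point in PWK at 1.53.

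Complex I, the NADH dehydrogenase, followed this order. Of its 36 subunits, 27 were lower and 2 higher in CAST than in B6, 31 lower and 1 higher in WSB, and 12 lower and 6 higher in PWK, with medians of -0.18, -0.22 and -0.036. Without the pair of B6 mice these counts were 21 lower and 4 higher, 24 lower and 1 higher, and 7 lower and 10 higher, and the PWK median became 0.029. Against PWK, 18 subunits were lower in CAST and 22 in WSB.

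Ndufb4, an accessory subunit of the membrane arm, differed most among complex I subunits. The lowest, median and highest WT mouse had 36.8, 42.8 and 46.7 CPM in PWK. The same 3 values were 12.3, 14.1 and 20.9 CPM in B6, 9.63, 11.8 and 13.5 in CAST, and 10.4, 11.9 and 14.2 in WSB. All PWK mice lay above all mice of the other strains, by 1.53 ± 0.061 (log2, SE) over B6 (adjusted p = 2.9e-39), 1.86 over CAST and 1.82 over WSB, while CAST and WSB did not differ by the test (-0.042 ± 0.061, adjusted p = 0.59).

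Ndufs5, another accessory subunit of the membrane arm, was lowest in CAST. Its lowest, median and highest WT values were 23.4, 25.4 and 33.4 CPM in CAST, 32.8, 36.7 and 41.2 in WSB, 36.9, 40.8 and 61.8 in B6, and 44.9, 50.5 and 54.2 in PWK. CAST and PWK did not overlap, with a difference of -0.94 ± 0.056 (adjusted p = 5.5e-27), and all 6 pairs of strains passed the test. Ndufa12, an accessory subunit, had the opposite order in WSB and PWK. It ran from 59.5 to 68.8 CPM in WSB and from 36.2 to 42.6 in CAST, a difference of 0.71 (adjusted p = 1.4e-26), with B6 from 45.5 to 71.5 and PWK from 41.6 to 53.9. Ndufb6, of the membrane arm, was highest in CAST at a mean of 32.2 ± 3.5 CPM (SD, n = 12) and lowest in WSB at 23.2 ± 1.32, without overlap, but 39% of its exon bases also lie in exons of Smim27.

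The core subunits of complex I moved less. Ndufv1, which binds NADH and flavin, had WT means of 141 CPM in B6, 142 in PWK, 123 in WSB and 113 in CAST. CAST was lower than PWK by 0.33 (adjusted p = 6.9e-11) without overlap, and B6 and PWK did not differ by the test (0.00068 ± 0.041, adjusted p = 0.99). Ndufs1, the large iron-sulfur subunit of the electron-entry arm, ran from 119.5 to 155 CPM over all WT mice. It was lower in each wild-derived strain than in B6, by 0.080 to 0.11, and no pair of wild-derived strains differed by the test.

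Complex II, succinate dehydrogenase, has no mitochondrially encoded subunit and links the chain to the citric acid cycle. Sdha, the flavoprotein that oxidizes succinate, was almost level, with WT means of 419 CPM in PWK, 416 in CAST, 408 in B6 and 400.0 in WSB. Its largest difference was 0.067 between PWK and WSB (adjusted p = 0.010). Its partners ranged more widely.

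Sdhb, the iron-sulfur subunit, was lowest in WSB, where the lowest, median and highest WT values were 67.3, 72.6 and 76.3 CPM. They were 80.1, 84.3 and 96.1 CPM in CAST, 81.3, 91.3 and 97.4 in PWK, and 77.0, 87.2 and 122 in B6. No WSB mouse reached the range of another strain, and WSB was lower than PWK by 0.32 (adjusted p = 6.2e-10). For the membrane anchors Sdhc and Sdhd, CAST was the lowest strain. Sdhc had means of 71.6 CPM in CAST and 90.3 in PWK (adjusted p = 7.0e-12), and Sdhd 54.6 in CAST and 62.2 in PWK (adjusted p = 4.2e-06). The succinate dehydrogenase subunits thus did not share a single order of strains.

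Complex III, the cytochrome bc1 complex, had 3 of 8 subunits lower and 1 higher in CAST than in B6, 6 lower in WSB and 4 lower in PWK. Without the pair of B6 mice these were 3 lower and 1 higher in CAST, 5 lower in WSB, and 3 lower and 1 higher in PWK. Uqcrb, the ubiquinone-binding subunit, was the most variable. Its lowest, median and highest WT values were 25.5, 27.5 and 33.5 CPM in CAST, 36.7, 39.5 and 41.3 in WSB, 31.8, 40.6 and 45.8 in PWK, and 39.5, 43.1 and 61.2 in B6. CAST did not overlap with B6 or WSB and was lower than B6 by 0.69 (adjusted p = 2.9e-22).

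Uqcrc1, core protein 1, was instead highest in CAST and lowest in WSB, with means of 216 ± 11.0 CPM in CAST, 195 ± 24.8 in B6, 187 ± 10.2 in PWK and 169 ± 4.65 in WSB. CAST was higher than WSB by 0.36 (adjusted p = 2.1e-12), and no WSB mouse reached the range of another strain. Uqcrh, the hinge protein, was highest in B6 with 112 CPM and lowest in CAST with 83.3. Uqcr10, a small accessory subunit, was lower than in B6 by 0.22 to 0.26 in each wild-derived strain, which did not differ among themselves by the test. Uqcrfs1, the Rieske iron-sulfur protein, and Uqcrc2, core protein 2, differed little. Uqcrc2 passed no comparison of strains, and its means ran from 137 to 142 CPM.

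Complex IV, cytochrome c oxidase, transfers electrons to oxygen. All 18 subunits differed over the strains, where 84.5% of all genes did. Against B6, 14 were lower and 1 higher in CAST, 15 lower in WSB, and 10 lower and 1 higher in PWK. The median of complex IV in PWK was -0.27, lower than in the other complexes. Without the pair of B6 mice the counts were 10 lower and 1 higher in CAST, 13 lower in WSB, and 9 lower and 2 higher in PWK.

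Cox7a2l, a relative of subunit 7A that helps complexes III and IV to join into supercomplexes, had the largest strain difference of any member. Its lowest, median and highest WT values were 73.4, 78.6 and 115 CPM in B6, 59.5, 61.4 and 68.2 in WSB, 27.4, 32.1 and 34.7 in PWK, and 10.6, 11.8 and 14.7 in CAST. No pair of strains overlapped. CAST was 6.80 times lower than B6 (log2 difference -2.77 ± 0.054, adjusted p = 3.3e-63), PWK was 2.62 times lower (adjusted p = 4.5e-41) and WSB 1.32 times lower (adjusted p = 2.8e-11). Within the 3 runs of libraries, CAST was lower than WSB by 2.30 to 2.44 and than PWK by 1.30 to 1.42 on the log2 scale, quoted as sizes.

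Cox7a2l (ENSMUSG00000024248, GRCm38 chromosome 17, 83501918 to 83517330, minus strand) has an annotated processed copy, Gm6969, on chromosome 12 (24638669 to 24639010). In the reference, 336 bases of coding sequence align to the copy with 2 mismatches, and the copy holds 6 bases more. As background, C57BL/6 strains are known for a Cox7a2l allele with a short in-frame deletion that many other strains lack. The stretch around the extra bases is shown because gene and copy differ there in the reference. Elsewhere they share sequence, and 9.98% of the 100-base stretches of Cox7a2l occur in other genes. Capitals mark bases without an identical partner in the alignment.
Cox7a2l, coding bases 172 to 255: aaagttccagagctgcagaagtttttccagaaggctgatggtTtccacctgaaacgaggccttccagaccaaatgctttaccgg
Gm6969, bases 172 to 261: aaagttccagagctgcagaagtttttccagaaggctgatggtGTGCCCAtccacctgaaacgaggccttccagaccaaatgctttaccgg

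Counts on the copy were highest in CAST, where those on the gene were lowest. Gm6969 had WT means of 10.1 ± 1.15 CPM in CAST and 1.52 ± 0.715 in PWK, but 0.169 ± 0.0614 in B6 and 0.144 ± 0.0864 in WSB. The sum of gene and copy was 22.2 CPM in CAST, 33.1 in PWK, 62.5 in WSB and 82.8 in B6, so the order of the strains was the same for the sum. Reads that aligned to several places, which the counting sets aside, made up 11.9% and 12.0% of the reads in the count tables at the median in WT CAST and PWK, against 9.66% in WSB and 9.96% in B6. The part of the copy and of set-aside reads in the level of Cox7a2l was not tested.

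Ndufb4, described above, also has a copy, and a reference stretch is shown where reads can match either gene. Its 390 coding bases are identical over their whole length to those of Ndufb4c on chromosome 15 (73809507 to 73809896).
Ndufb4, coding bases 121 to 201, the same in Ndufb4c: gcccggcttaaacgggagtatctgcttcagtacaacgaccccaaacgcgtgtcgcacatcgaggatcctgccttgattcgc
Few reads were counted on Ndufb4c, 0.0487 to 0.106 CPM on average in the 4 WT groups, and its part in the level of Ndufb4 was not tested. A stretch of 100 bases found in the exons of another gene was present in 21 members, whose median range over the strains was 0.37, against 0.30 for the other 78. A range over 0.5 was found for 8 of the 21 and 14 of the 78. Such stretches made up 33.4% of Ndufb4, 21.7% of Atp5h, 17.7% of Ndufa12, 15.8% of Uqcrb and 12.7% of Ndufs5. All of these are named for a large range, and the part of copies in their strain differences was not tested.

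**Figure D2:**
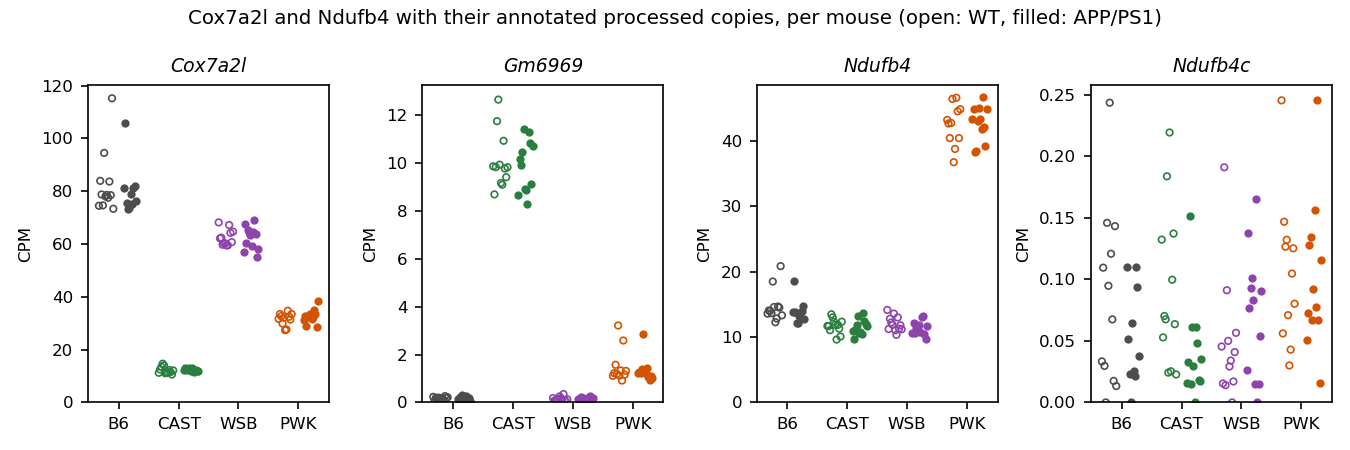
CPM per mouse (y axis, linear and separate for each panel) of Cox7a2l, its copy Gm6969, Ndufb4 and its copy Ndufb4c in the 4 strains (x axis); open circles are WT and filled circles APP/PS1 mice. Cox7a2l separates the strains in the order B6, WSB, PWK, CAST, Gm6969 is highest in CAST at a WT mean of 10.1 CPM, and Ndufb4 is highest in PWK.

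The widespread isoforms of complex IV subunits differed modestly. Cox4i1 had WT means of 248 CPM in B6 and 233 in PWK, against 208 in CAST and 204.5 in WSB. The levels in CAST and WSB were lower than in B6 by 0.26 (adjusted p = 3.9e-05) and 0.28 (adjusted p = 1.4e-05). Cox6a1 passed no comparison with B6. Cox6b1 and Cox8a were lower in CAST than in B6 by 0.29 and 0.26, and B6 and PWK did not differ by the test for either of them. Cox5a differed from B6 by -0.16 in CAST and -0.15 in WSB (adjusted p = 0.012 and 0.020). Neither call held without the pair of B6 mice, where the values were -0.087 and -0.080 (adjusted p = 0.083 and 0.14). Ndufa4, first assigned to complex I and now to complex IV, differed from B6 by -0.15 in CAST and -0.19 in WSB. Without the pair these were -0.086 (adjusted p = 0.074) and -0.12 (adjusted p = 0.017). The call in CAST was also lost with the library run as a covariate (-0.12, adjusted p = 0.087). That fit placed the B6 mice in the first run of the wild-derived strains, so it cannot separate strain from run against B6.

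Cox7a2, the widespread isoform of subunit 7A, had another order. It ran from 61.3 to 79.2 CPM in WT WSB mice, below the 90.9 to 119.5 CPM of CAST and the 85.8 to 122 CPM of PWK, with B6 from 71.3 to 119. WSB was lower than PWK by 0.54 (adjusted p = 2.4e-14) and than CAST by 0.46 (adjusted p = 1.0e-11). CAST, where Cox7a2l was lowest, had more Cox7a2 than B6, by 0.22 (adjusted p = 0.00041).

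The isoforms known from heart and muscle or testis were low in these brains and differed by larger folds. Cox6a2, the heart and muscle isoform of subunit 6A, had WT values of 1.47, 2.61 and 3.40 CPM in B6 (lowest, median, highest), 0.646, 1.56 and 2.1 in WSB, 0.667, 1.07 and 1.38 in CAST, and 0.548, 1.06 and 1.42 in PWK. No CAST or PWK mouse reached the range of B6, and the differences were -1.27 (adjusted p = 3.4e-14) and -1.29 (adjusted p = 7.0e-14). Cox8b was below 0.6 CPM in every WT mouse, and its largest difference was -1.34 ± 0.28 in WSB against B6 (adjusted p = 3.5e-05). Cox7a1 was lowest in CAST, with a mean of 0.758 CPM against 1.26 in B6 (adjusted p = 2.3e-06).

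Cox7b2, a testis isoform, had a mean of 0.186 CPM in B6 and 0.0346 in WSB. Mice with no count occurred in WSB and PWK, so its log2 difference of -2.33 ± 0.47 rests on very few reads. Cox6b2, another testis isoform, was lower in PWK than in CAST by 0.47 and than in WSB by 0.51. Its difference of -0.43 between PWK and B6 (adjusted p = 0.0016) was no longer called with the library run as a covariate (-0.29, adjusted p = 0.060). There too the B6 mice were placed in the first run, so strain and run stayed unseparated. Cox4i2, known from lung and vascular mural cells, was lower than in B6 by 0.39 to 0.51 in the wild-derived strains. The lowest, median and highest sum of the 5 muscle markers in WT mice was 13.0, 15.6 and 24.7 CPM in B6, 14.4, 17.8 and 21.1 in CAST, 15.8, 17.9 and 19.9 in WSB, and 11.0, 13.5 and 16.8 in PWK. These ranges overlapped, and their part in the differences of the muscle isoforms was not tested. The summed level of 5 endothelial markers in WT mice was 195.9 to 236 CPM in B6, above the 151 to 175 CPM in CAST and the 157 to 182 CPM in WSB. In PWK it was 172 to 200 CPM, which overlapped with B6. The lowest single difference of these markers between WSB and B6 was -9.74 on the log2 scale, so the WSB sum nearly lacks that marker. The part of this sum in the difference of Cox4i2 was not tested.

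Complex V, ATP synthase, had 11 of 16 subunits lower and 1 higher in CAST than in B6, 13 lower in WSB, and 3 lower and 2 higher in PWK. Leaving out the pair of B6 mice, these were 10 lower and 1 higher, 9 lower, and 4 higher with none lower. In WSB and CAST, 10 and 9 subunits were lower than in PWK and none was higher.

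Atp5b had WT values of 957, 1039 and 1377 CPM in B6 (lowest, median, highest), 921, 974 and 1076 in CAST, 889, 941 and 971 in WSB, and 962, 1069 and 1148 in PWK. The ranges overlapped between B6 and the others, and the WSB mean was lower than that of B6 by 0.20 (adjusted p = 3.6e-06) and than that of PWK by 0.18 (adjusted p = 2.4e-05). Atp5a1, the alpha subunit of the catalytic head, was higher in PWK than in WSB without overlap, with means of 859 and 740 CPM (adjusted p = 1.1e-07). Atp5d, in the central stalk, and Atp5h, in the peripheral stalk, were lower in CAST than in B6 by 0.32 and 0.38.

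The 3 genes for subunit c, which encode the same mature protein of the rotor ring, were not parallel. Atp5g2 was higher in PWK and CAST, with WT values of 40.5, 43.2 and 48.4 CPM in PWK, 34.1, 36.3 and 43.3 in CAST, 25.3, 29.2 and 31.7 in WSB, and 24.6, 28.0 and 40.9 in B6. PWK exceeded WSB by 0.61 (adjusted p = 3.7e-20) and B6 by 0.60 (adjusted p = 5.0e-20), although Atp5g2 shares 100-base stretches with processed copies over 34.7% of its exon sequence. Atp5g1 and Atp5g3 were lower in CAST than in B6 by 0.19 each, and Atp5g3, the most abundant with means of 164 to 188 CPM, was also lower in WSB by 0.20. Atp5l, subunit g of the membrane part, was highest in PWK with 70.8, 77.5 and 92.9 CPM, above the 43.6, 47.8 and 56.7 CPM of WSB by 0.74 (adjusted p = 1.3e-19), and 61.4% of its 100-base stretches occur in other genes.

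The assembly factors were split between directions. In CAST 11 were lower and 5 higher than in B6, in WSB 8 and 3, and in PWK 8 and 3. These were 11 lower and 6 higher, 7 and 5, and 7 and 3 when the pair of B6 mice was left out. Sdhaf4, which matures the flavoprotein of complex II, was highest in WSB with WT values of 11.5, 12.3 and 13.6 CPM and lowest in PWK with 5.48, 6.15 and 7.55. CAST had 7.59, 9.35 and 10.6 CPM and B6 7.44, 7.94 and 12.1. The ranges of WSB, CAST and PWK did not overlap, and WSB exceeded PWK by 0.97 (adjusted p = 3.6e-26).

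Sdhaf1, which inserts iron-sulfur clusters into complex II, was lowest in CAST at a mean of 1.21 ± 0.334 CPM, against 2.48 ± 0.430 in B6, 2.00 ± 0.210 in WSB and 2.52 ± 0.448 in PWK. The difference between CAST and B6 was -1.04 (adjusted p = 3.1e-14), but 69.6% of its exon bases overlap exons of E130208F15Rik, and the strand setting of the counting is not given in the sources used here. Uqcc1, needed to assemble complex III, was lowest in WSB. It ran from 32.6 to 37.7 CPM there, from 47.5 to 53.7 in CAST, from 45.3 to 53.1 in PWK and from 53.1 to 69.5 in B6, and WSB was lower than B6 by 0.74 (adjusted p = 1.6e-37). Uqcc3, which acts in the same process, was highest in CAST at 13.0 CPM and lowest in PWK at 8.35. Atp5s, a coupling factor, was 18.3 CPM in CAST and 19.1 in PWK, above the 14.8 CPM of B6 and the 14.4 of WSB. Sdhaf3 was highest in WSB at 16.2 CPM, and Ndufaf7 highest in B6 at 30.6.

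**Figure D3:**
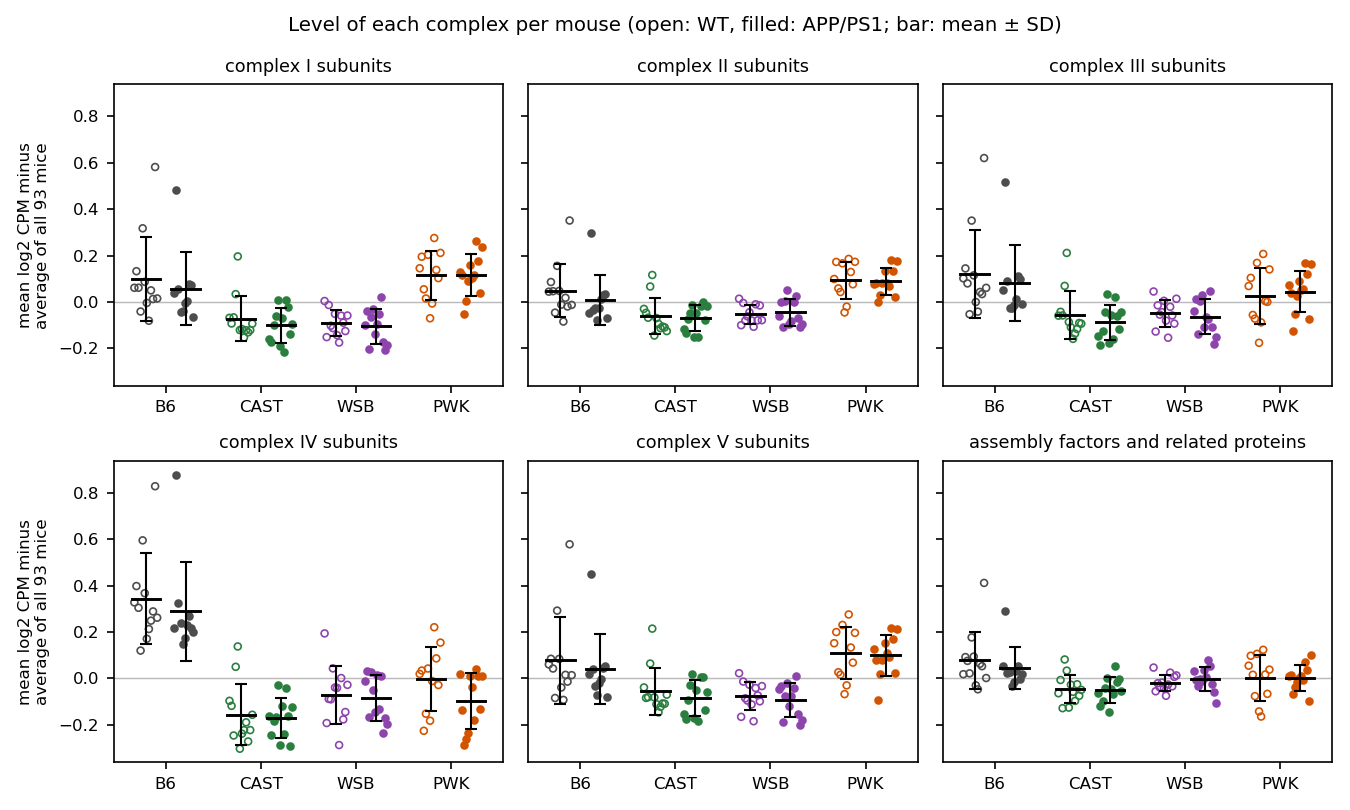
Mean level of the subunits of each complex per mouse, as log2 CPM minus the average of all 93 mice (y axis), in WT (open) and APP/PS1 (filled) mice of each strain (x axis); bars are mean ± SD of 10 to 12 mice. Every subunit has equal weight, so the low isoforms count fully in complex IV. The highest B6 mouse of each genotype is 1 of the pair that stood apart, and complex I in WT mice averages 0.11 in PWK, 0.099 in B6 (0.055 without the mouse that stood apart), -0.072 in CAST and -0.090 in WSB.

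The rest of the pathway was described beside the members. Of 13 mitochondrially encoded subunits, 5 were higher and 5 lower in CAST than in B6, 1 and 7 in WSB, and 1 and 9 in PWK. Of 30 other assembly factors, 6 were higher and 14 lower in CAST than in B6, 5 and 13 in WSB, and 7 and 15 in PWK. Of 17 genes of the citric acid cycle and pyruvate dehydrogenase, 3 were higher and 8 lower in CAST, 2 and 10 in WSB, and 4 and 7 in PWK. Of 14 regulators of mitochondrial gene expression, 8 were higher and 3 lower in CAST, 6 and 2 in WSB, and 8 and 1 in PWK, a direction opposite to that of most subunits. The medians of these regulators were 0.15, 0.052 and 0.11. Of 13 electron carriers around cytochrome c and ubiquinone, 4, 5 and 5 were higher and 5, 4 and 4 lower.

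Other gene groups moved along with the members. Of 97 cytosolic ribosomal proteins, which also have short, abundant transcripts, 55 were lower and 8 higher in CAST than in B6, 74 and 4 in WSB, and 57 and 13 in PWK. Their medians were -0.15, -0.26 and -0.15. In CAST against PWK their median was 0.0046, with 25 lower and 18 higher, beside -0.11 for the members. All 6 oligodendrocyte markers were lower than in B6 in each wild-derived strain, and their sum was 5557 to 7626 CPM in B6, 3882 to 5540 in WSB, 3322 to 4785 in CAST and 3302 to 4773 in PWK. Neuron markers had medians between -0.027 and 0.034 against B6, with 4, 3 and 4 of 10 past the test. Of those past it, 4 were lower and 0 higher in CAST, 2 and 1 in WSB, and 1 and 3 in PWK. The lowest single differences were -0.40, -0.26 and -0.16. The part of these groups in the members' differences was not tested.

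The response to the transgenes was compared within each strain, as APP/PS1 minus WT averaged over the sexes. No member passed the test in any strain, by edgeR or by DESeq2, where edgeR called 2.04% of all genes in PWK, 0.658% in CAST, 0.375% in WSB and 0.224% in B6. At an unadjusted p under 0.05, edgeR found 6 members in PWK, that is 5 lower and 1 higher, where 12.0% of all genes were under it. It found 1 in B6 (5.61% of all genes), 1 in WSB (7.70%) and 0 in CAST (7.80%). No member passed in the mean response over the strains, where 2.27% of all genes were called. At an unadjusted p under 0.05 in edgeR, that response had 3 members, where 11.5% of all genes were under it. None passed in the test of a difference of responses between strains (0.473% called). There 1 member and 2046 of 23702 genes had an unadjusted p under 0.05.

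The fitted responses were small for most members. The largest in PWK were those of low complex IV isoforms. They were -0.60 ± 0.29 for Cox8b, -0.33 ± 0.15 for Cox4i2 and -0.26 ± 0.12 for Cox6b2 (adjusted p = 0.40, 0.36 and 0.39). The largest in CAST was 0.36 ± 0.48 for Cox7b2 (adjusted p = 0.94). The 95% interval lay within 0.25 on the log2 scale, a change of 1.19 times, for 91 members in each of B6, WSB and PWK, 90 in CAST and 97 in the mean over the strains. In the order B6, CAST, WSB, PWK, the medians were -0.034, -0.026, -0.014 and -0.0053, and negative estimates numbered 85, 75, 68 and 57 of 99. Over all genes the medians were -0.0036, -0.0034, 0 and -0.0045, with about 12380, 12300, 11850 and 12320 of 23702 estimates negative. The cytosolic ribosomal proteins had medians of -0.029, -0.023, -0.019 and 0.034 in the same order. Without the pair of B6 mice, 1 of each genotype, no member passed in B6 and the median was -0.035. The B6 median depended on single mice, at -0.10 without B6.APP/PS1 female 2 and -0.016, -0.019 and -0.0066 without females 1, 3 and 4. The PWK median was 0.0025 and 0.0070 without PWK WT females 2 and 5, -0.015 and -0.016 without females 3 and 4, and -0.019 with total counts as library sizes. The widest intervals belonged to low isoforms such as Cox7b2 and Cox8b, for which a response as large as 0.5 on the log2 scale would not have been detectable at this depth.

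**Figure D4:**
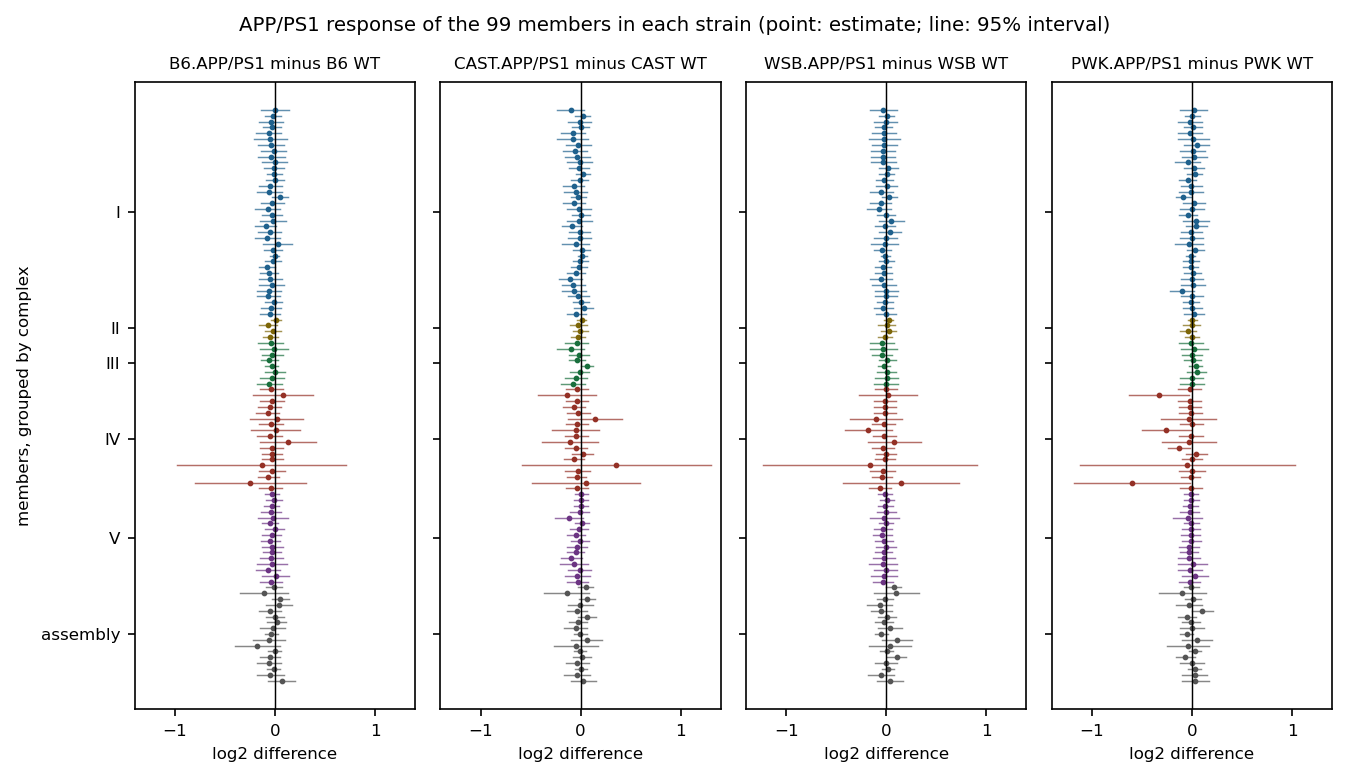
APP/PS1 response of each of the 99 members (rows, grouped by complex and coloured by it) in each strain (panels), as log2 difference of APP/PS1 minus WT; points are estimates and lines 95% intervals. Almost all intervals include 0, 90 or 91 of 99 in each strain lie within 0.25 on either side, and the long lines are low isoforms of complex IV.

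The members with the smallest p in each strain were named by the same rule. Ndufs3, a core subunit of the peripheral arm of complex I, ran from 70.6 to 106 CPM in B6 WT mice and from 64.9 to 91.3 in B6.APP/PS1 mice. Its groups overlapped, the difference was -0.083 ± 0.041, and the adjusted p was 0.88 with edgeR. Ndufb7, of the membrane arm, differed by -0.093 ± 0.053 in B6. In CAST the smallest p-values belonged to Uqcrc2 (0.061 ± 0.031, adjusted p = 0.65) and Ndufs5 (-0.10 ± 0.056, adjusted p = 0.70). Neither passed.

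Sdhaf3, an assembly factor of complex II, had 14.2, 16.3 and 18.0 CPM in WSB WT mice and 14.9, 17.9 and 20.4 in WSB.APP/PS1 mice (lowest, median, highest). The difference of 0.10 ± 0.046 had an adjusted p of 0.55 with edgeR, and in the test of a difference between strains the same gene had an adjusted p of 0.57. Atp5s differed by 0.073 ± 0.038 in WSB. In PWK, Cox7a2 had 85.8, 106 and 122 CPM in WT and 81.4, 94.4 and 117 in APP/PS1 mice, a difference of -0.13 ± 0.056 (adjusted p = 0.31). Ndufb2, of the membrane arm of complex I, differed by -0.087 ± 0.038 in PWK (adjusted p = 0.31) and had an adjusted p of 0.58 for a difference between strains. In the mean over the strains, Ndufaf7 fell short of the threshold with -0.035 ± 0.016 (adjusted p = 0.36) and Cox7a2 with -0.060 ± 0.028 (adjusted p = 0.37).

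The members with the largest strain differences did not pass the test of the response in any strain. The response of Cox7a2l was 0.046 ± 0.051 in PWK, -0.0020 ± 0.049 in WSB, 0.020 ± 0.053 in CAST and -0.031 ± 0.052 in B6. Ndufb4 differed by 0.0026 ± 0.059 in PWK, where it was highest. Atp5b, the most abundant member, had responses between -0.0097 and 0.0074 in the 4 strains with SEs of 0.036 to 0.038. Markers of microglia and macrophages gave a contrast in the same mice, with 2, 2, 3 and 5 of 7 higher in APP/PS1 mice of B6, CAST, WSB and PWK and medians of 0.18, 0.19, 0.19 and 0.31.

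The transgenes of this line lie on chromosome 9 near Arpp21, and B6 sequence linked to them can remain in a backcrossed strain. How much of it remained in these mice was not analysed here. Within 10 Mb of Arpp21 lay 328 tested genes, of which 38 were called in PWK, 16 in CAST, 12 in WSB and 3 in B6. The members there were Uqcrc1, at 3.12 Mb, and Ndufaf3, a complex I assembly factor, at 3.5 Mb, and neither was called in any strain. Uqcrc1, which differed by 0.36 between CAST and WSB WT mice, had responses of 0.0084 ± 0.042 in PWK, 0.012 ± 0.041 in WSB, -0.033 ± 0.041 in CAST and -0.055 ± 0.043 in B6. Ndufaf3 had the highest PWK response of any member, 0.10 ± 0.052 (unadjusted p = 0.048, adjusted p = 0.41), with 13.8, 17.8 and 19.1 CPM in WT and 16.2, 18.65 and 20.1 in APP/PS1 mice. Its WT level was lower in PWK than in B6 by 0.20 (adjusted p = 0.00082), and its responses in B6, CAST and WSB were -0.050, -0.039 and -0.048. The part of linked B6 sequence in these values was not tested.

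Females and males were compared among WT mice over the strains. No member passed, where 0.456% of all genes did. At an unadjusted p under 0.05 edgeR found 5 members, all higher in females, where 12% of all genes were under it. The estimate was higher in females for 91 of 99 members, with a median of 0.032. Over all genes it was higher in females for about 11960 of 23702, with a median of 0.00079. For 96 members the 95% interval lay within 0.25. Ndufaf7, an assembly factor of complex I, had the smallest p, with 0.058 ± 0.022 and an adjusted p of 0.24. The genes of the citric acid cycle and pyruvate dehydrogenase had a median of 0.032, and the cytosolic ribosomal proteins one of 0.0083.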

How the data were processed

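Transcription was measured by RNA-seq in 93 mice. Per the labels and the study's methods, the authors trimmed reads with Trimmomatic, aligned them with STAR to mm10 (B6) or to mm10 with the variants of CAST, WSB or PWK put in, and counted them per gene with HTSeq. What they deposited for each mouse is a table of whole-number counts, not normalized. Versions and the strand setting are not given in the sources used here. Reads that align to several places or to overlapping genes are not counted, which can lower genes with copies. Entries that name no gene stayed out of library sizes and tests. Of all reads in a table, 12.2 to 18.2% matched no gene, 2.98 to 5.26% were ambiguous and 8.91 to 12.7% aligned to several places.

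Genes were matched to GENCODE M21 symbols (47224 of 47643 identifiers common to all mice). Counts were fitted with edgeR 4.0.16 in R 4.3.3 (TMM, quasi-likelihood, 16 means of strain, genotype and sex, sexes weighted equally in contrasts), and p-values were adjusted by Benjamini and Hochberg's method across 23702 genes, with 0.05 as threshold. DESeq2 1.42.0 is named where it was used, and every other adjusted p comes from edgeR. Errors are SEs of the fit, or SDs between mice where marked. For CPM, library sizes were multiplied by their TMM factors. On simulated data, edgeR recovered 90 of 100 genes changed by 0.5 on the log2 scale and 99 of 100 changed by 1 between WT CAST and WSB. The numbers were 88 and 99 for the PWK response, and 81 and 99 for a difference of responses between strains. Unchanged genes called numbered 7, 8 and 12. The changed genes were drawn from those with higher counts, so low isoforms such as Cox7b2 are not covered. Smaller changes were not simulated. Exon and copy sequences were compared as stretches of 100 bases in GRCm38. Tables and figures were made with Python 3.11.15, numpy 2.4.6, pandas 2.3.3, scipy 1.17.1 and matplotlib 3.10.9.

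The members and lists were chosen with earlier results of these data known. Named members are those with the largest strain range in each class (4 each), the smallest p for each response, core subunits and tissue isoforms by role, and genes near Arpp21.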

Additional observations from a re-analysis of the deposited data

Results flagged for a closer look

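B6.APP/PS1 female 2 lay farther above the other B6.APP/PS1 mice than a gap test allows, in 11 of the values examined, and chance marks about 1 group in 20 this way. Its mean levels, in log2 CPM over the average of all mice, were 0.48 for complex I, 0.30 for complex II, 0.52 for complex III, 0.88 for complex IV, 0.45 for complex V, 0.56 for all subunits and 0.29 for the assembly factors. Among the named members it was the highest mouse for Uqcrc1 with 254 CPM, Ndufs3 with 91.3, Ndufb7 with 52.9 and Ndufaf3 with 24.4. These values come from a single mouse and are not independent of each other. The ribosomal protein genes stood 0.52 to 0.61 above the average in this mouse and in B6 WT male 5.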

How the results depend on the processing

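The counts of members called stayed within 1.5 times of those reported, under DESeq2's size factors or test, total counts as library sizes, no count filter, the library run as a covariate, models of fewer mice, and without the pair of B6 mice. The lowest count for PWK against B6 was 36, with the library run as a covariate, against 50. That fit placed the B6 mice in the first run of the wild-derived strains, so it does not adjust comparisons with B6 for run. Leaving out 1 mouse at a time from the smaller groups, the 5 WT females of PWK and the 4 APP/PS1 females of B6, gave 78 to 80 members for CAST against B6, 78 to 79 for WSB against B6, 42 to 50 for PWK against B6, 45 to 48 for CAST against WSB, 53 to 60 for CAST against PWK, 59 to 66 for WSB against PWK and 90 to 95 for any difference. In the reported fit, the shares of all genes called were 61.4% for CAST, 47.5% for WSB and 59.25% for PWK against B6. They were 54.2% for CAST against WSB, 54.85% for CAST against PWK and 54.5% for WSB against PWK. The shares under the alternatives are not given here, so these counts do not show whether the members changed more than other genes. No alternative called a member in any response or between the sexes. Of 209 differences of named members, 179 kept their side of the threshold under every alternative, 30 lost it under at least 1, and 0 reversed.

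Same-numbered mice did not deviate together (45 pairs, mean r = 0.0081, highest 0.076), so the replicate numbers do not pair the mice. With the replicate number as a block, 77 members were called for CAST against B6, 79 for WSB against B6, 50 for PWK against B6, 45 for CAST against WSB, 58 for CAST against PWK, 63 for WSB against PWK, 91 for any difference and 0 for every response. The shares of all genes called in that block fit are not given here.

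Low isoforms such as Cox7b2 rest on few reads, and copies limit the members that share sequence with them.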
